A study of Drosophila melanogaster with 2 samples.

Results

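The Enhancer of split complex, abbreviated E(spl), is a run of small Notch target genes on the right arm of chromosome 3 (3R) of Drosophila melanogaster. The 10 genes described here were taken by name from the Ensembl BDGP6 annotation, out of the 13945 protein-coding genes that it places on the main chromosomes other than Y. They run from E(spl)mdelta-HLH to E(spl)m8-HLH over 43388 bp, at 3R:25997621-26041008 (dm6). Binding of pebbled (peb), a zinc finger transcription factor also called hindsight, was mapped by ChIP-seq, which sequences the DNA that comes down with a protein. The chromatin came from whole embryos aged 0 to 24 h of a strain that carries a peb-eGFP fusion, and the fusion was pulled down with anti-GFP. The chromatin fragments were 200 to 800 bp long. There were 2 biological replicates and 1 group, and both replicates carry the tagged protein, so there was no comparison between conditions. Each peak is an average over all cell types and stages in the collection, and fewer bound cells and weaker binding per cell cannot be told apart. The values are from peak lists and not from reads, so read depth is unknown and no counting interval can be given.

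When Notch is activated, its cleaved intracellular part enters the nucleus and joins the DNA-binding protein Suppressor of Hairless, Su(H), to switch on target genes. The E(spl) genes are the classic direct targets of that complex in fly embryos and imaginal discs. Those with the suffix HLH encode basic helix-loop-helix repressors, which recruit the co-repressor Groucho and hold cells back from a neural fate, and those with the suffix BFM encode Bearded family proteins, which inhibit the Neuralized ubiquitin ligase. Pebbled is itself switched on by Notch in the follicle cells of the fly ovary.

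The joint list of the experiment, made from both replicates together, held 11 of its 2845 peaks in the complex and the 5000 bp on either side, and 7 of these had their summit within the complex itself. Replicate 1 alone had 7 of its 1418 peaks in the same stretch and replicate 2 alone had 8 of its 2054. At a promoter, meaning a summit within 1000 bp of the transcription start site (TSS), the joint list had a peak at 4 of the 10 genes, namely E(spl)m3-HLH, E(spl)m7-HLH, E(spl)mdelta-HLH and E(spl)m2-BFM. The share among all protein-coding genes was 13.5%. All 4 of these summits lay 332 to 442 bp upstream of the TSS.

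The sequences under those 4 promoter summits are printed first, because the calls at the member genes rest on them. Each is the 201 bp centred on the summit, on the plus strand of 3R, in dm6 coordinates and read from the RefSeq genome of the same assembly. Capitals mark every match to any of 15 searched patterns, listed further on. The windows of E(spl)mdelta-HLH (3R:25997138-25997338), E(spl)m2-BFM (3R:26017812-26018012), E(spl)m3-HLH (3R:26021340-26021540) and E(spl)m7-HLH (3R:26036606-26036806) read as follows.
E(spl)mdelta-HLH: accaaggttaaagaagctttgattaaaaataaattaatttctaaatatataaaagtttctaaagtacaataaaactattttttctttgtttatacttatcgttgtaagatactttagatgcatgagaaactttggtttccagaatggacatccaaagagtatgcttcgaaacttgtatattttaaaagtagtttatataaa
E(spl)m2-BFM: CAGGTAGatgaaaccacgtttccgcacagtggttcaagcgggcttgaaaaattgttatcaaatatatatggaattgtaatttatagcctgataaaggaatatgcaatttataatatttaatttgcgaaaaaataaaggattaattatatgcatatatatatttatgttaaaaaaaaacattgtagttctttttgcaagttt
E(spl)m3-HLH: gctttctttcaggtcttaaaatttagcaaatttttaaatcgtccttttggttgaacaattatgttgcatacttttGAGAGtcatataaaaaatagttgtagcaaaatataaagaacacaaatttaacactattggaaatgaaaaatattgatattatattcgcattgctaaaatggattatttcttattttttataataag
E(spl)m7-HLH: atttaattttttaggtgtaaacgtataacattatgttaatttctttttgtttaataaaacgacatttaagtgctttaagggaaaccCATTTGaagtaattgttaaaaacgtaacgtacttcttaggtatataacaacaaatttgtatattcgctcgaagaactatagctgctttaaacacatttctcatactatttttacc
These windows are rich in A and T. Their GC content was 23.9%, 26.4%, 23.4% and 26.4% in that order, against a median of 35.3% over all joint summits and 42.3% over flanks 1000 bp away. Of all joint summits, 2.53%, 6.9%, 2.04% and 6.9% had a GC content as low or lower. Low GC was not limited to promoters, since the summit between E(spl)malpha-BFM and E(spl)m2-BFM had 24.4%, which 3.13% of all joint summits matched or undercut.

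A pair of further windows is shown for contrast. The strongest summit within the complex, between E(spl)mbeta-HLH and E(spl)malpha-BFM (3R:26009002-26009202), had a GC content of 33.3%. The summit upstream of E(spl)m3-HLH in the long non-coding RNA gene lncRNA:CR43644 (3R:26020457-26020657) had 47.8% and held 5 pattern matches, the most of the 11. In this count CACGTG stands under both of the patterns that it matches.
Between E(spl)mbeta-HLH and E(spl)malpha-BFM: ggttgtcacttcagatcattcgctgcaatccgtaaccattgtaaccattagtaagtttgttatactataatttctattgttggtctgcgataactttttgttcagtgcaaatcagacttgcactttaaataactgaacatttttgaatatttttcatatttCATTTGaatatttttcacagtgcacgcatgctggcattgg
In lncRNA:CR43644: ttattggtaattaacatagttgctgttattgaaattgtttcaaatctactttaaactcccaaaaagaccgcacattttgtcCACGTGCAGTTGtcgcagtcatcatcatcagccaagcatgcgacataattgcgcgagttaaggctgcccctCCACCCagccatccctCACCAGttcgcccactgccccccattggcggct
The capitals in the CR43644 window include the palindromic E-box, a CACNAG match and CCACCC, the core searched for as that of RREB1, the mammalian homologue of pebbled.

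**Figure D1:**
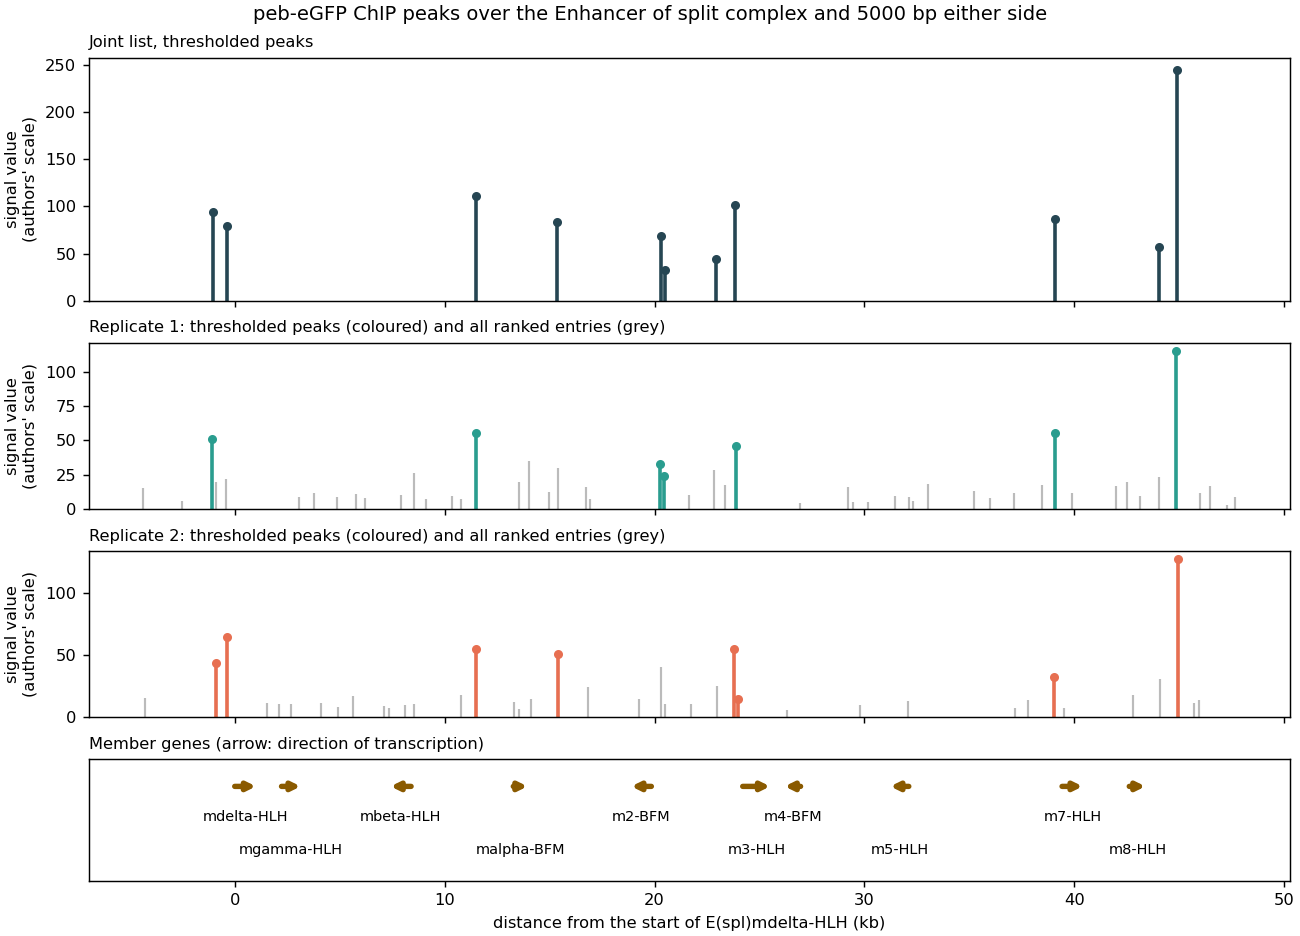
Signal value of each peak (vertical axis, the authors' scale, separate for each list) against distance from the start of E(spl)mdelta-HLH (horizontal axis, kb), for the joint list and for each replicate, with the member genes as arrows in the lowest panel. Coloured stems are thresholded peaks and grey stems are all ranked entries. The highest stem in all 3 lists stands at gro, beyond the right end of the complex, with 245 in the joint list.

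Among the 7 repressor genes, 3 had a joint promoter peak. The highest was at E(spl)m3-HLH (FBgn0002609, 3R:26021823-26023127, plus strand), with a peak at 3R:26021278-26021601 whose summit lay 383 bp upstream of the TSS. The same summit was 364 bp upstream of the TSS of lncRNA:CR43644, so the peak cannot be given to either gene alone. Its signal value, a number that the authors' pipeline gave to each peak, was 102 in the joint list, 45.5 in replicate 1 and 54.6 in replicate 2. Since each list has a scale of its own, each value is also given as a percentile of its own list. These were 70.3 in the joint list, 37.3 in replicate 1 and 54.6 in replicate 2. Replicate 2 had a second peak at this promoter, 222 bp upstream, with a signal of 14.2, at percentile 1.44 of its list. The peak of E(spl)m3-HLH was therefore in the middle range of both replicates and not among their strongest.

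E(spl)m7-HLH (FBgn0002633, 3R:26037038-26038019, plus strand) had the next highest promoter peak of the repressor genes, with a joint signal of 86.3 at percentile 60.9 (3R:26036544-26036867). Its summit lay 332 bp upstream of the TSS in the joint list, 333 bp in replicate 1 and 382 bp in replicate 2. The replicates placed it differently in rank, with 55.2 at percentile 55.4 in replicate 1 and 32.3 at percentile 7.04 in replicate 2.

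E(spl)mdelta-HLH (FBgn0002734, 3R:25997621-25998633, plus strand), at the left end of the complex, had a joint peak of 79.3 at percentile 55.4 (3R:25997076-25997399). In replicate 2 the peak had a signal of 64.5 at percentile 65.5, with its summit 361 bp upstream. In replicate 1 it did not reach the thresholded list. The ranked list of replicate 1, which holds all candidate entries before thresholding, had an entry of 22.1 there, 402 bp upstream. Its score was 261. The score is scaled from the irreproducible discovery rate so that the peaks that are kept score high, and every joint peak had 830 or more. The same summit was 242 bp upstream of the TSS of CG43116, the divergent gene to the left, so the peak cannot be given to either gene alone.

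The Bearded family genes had a joint promoter peak in 1 of 3 cases. E(spl)m2-BFM (FBgn0002592, 3R:26016514-26017470, minus strand) had a peak of 68.7 at percentile 43.7 (3R:26017750-26018073), with its summit 442 bp upstream. Replicate 1 had it with 32.8 at percentile 8.43, near the bottom of its list. Replicate 2 had only a ranked entry of 40.4 with a score of 564. A further joint peak, of 32.5 at percentile 5.15 (3R:26017950-26018273), overlapped the first by 124 bp, with its summit 200 bp away from it and 642 bp upstream of the TSS. Only replicate 1 had this one in its thresholded list, with 24.0, and it is absent from the conservative list of the experiment.

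Thus E(spl)m3-HLH was called by both replicates, as was E(spl)m7-HLH, replicate 2 alone called E(spl)mdelta-HLH and replicate 1 alone called E(spl)m2-BFM. Each replicate had promoter peaks at 3 of the 10 genes, against 7.69% of all protein-coding genes in replicate 1 and 10.7% in replicate 2. At all 4 promoters both replicates had a ranked entry, at percentile 93.9 or higher of the ranked list. The 4 were picked through the joint list, made from both replicates, so these entries are no separate support. The same share over all joint peaks is not given here. Replicate 1 also had entries in that range near E(spl)mbeta-HLH, at percentile 96.2, and E(spl)malpha-BFM, at percentile 97.8, which had no thresholded promoter peak.

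The remaining 6 genes had no joint summit within 1000 bp of the TSS, and their ranked entries differed widely. In the order of the joint ranked list, E(spl)malpha-BFM (FBgn0002732, 3R:26010893-26011568, plus strand) had the strongest, of 47.2 with a score of 573, and it lay 782 bp downstream of the TSS, beyond the gene's end. E(spl)mbeta-HLH (FBgn0002733, 3R:26005046-26006023, minus strand) had one of 36.5 with a score of 398, 159 bp upstream. The replicates differed there, with 26.2 at percentile 96.2 of ranked entries in replicate 1 and 10.7 at percentile 46.4 in replicate 2.

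E(spl)m8-HLH (FBgn0000591, 3R:26040240-26041008, plus strand) had an entry of 31.5, whose summit was 34 bp past the TSS. In the joint ranked list, its score of 756 was the highest below the threshold in the complex and its margins. In replicate 1 its strongest entry was 19.9, 89 bp upstream with a score of 38, and in replicate 2 it was 17.4, 160 bp downstream with a score of 163.

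E(spl)m5-HLH (FBgn0002631, 3R:26028854-26029735, minus strand) had entries of 24.5 at 938 bp upstream and 23.4 at 26 bp downstream, with scores of 50 and 128. E(spl)mgamma-HLH (FBgn0002735, 3R:25999851-26000761, plus strand) had one of 20.0 at 704 bp upstream, with a score of 41. E(spl)m4-BFM (FBgn0002629, 3R:26023821-26024579, minus strand) had none in the joint ranked list. Its entries in the replicates were 3.93 in replicate 1, at percentile 5.97, and 5.86 in replicate 2, at percentile 3.70. In both replicates, E(spl)m4-BFM thus had the lowest percentile of the 10 members.

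**Figure D2:**
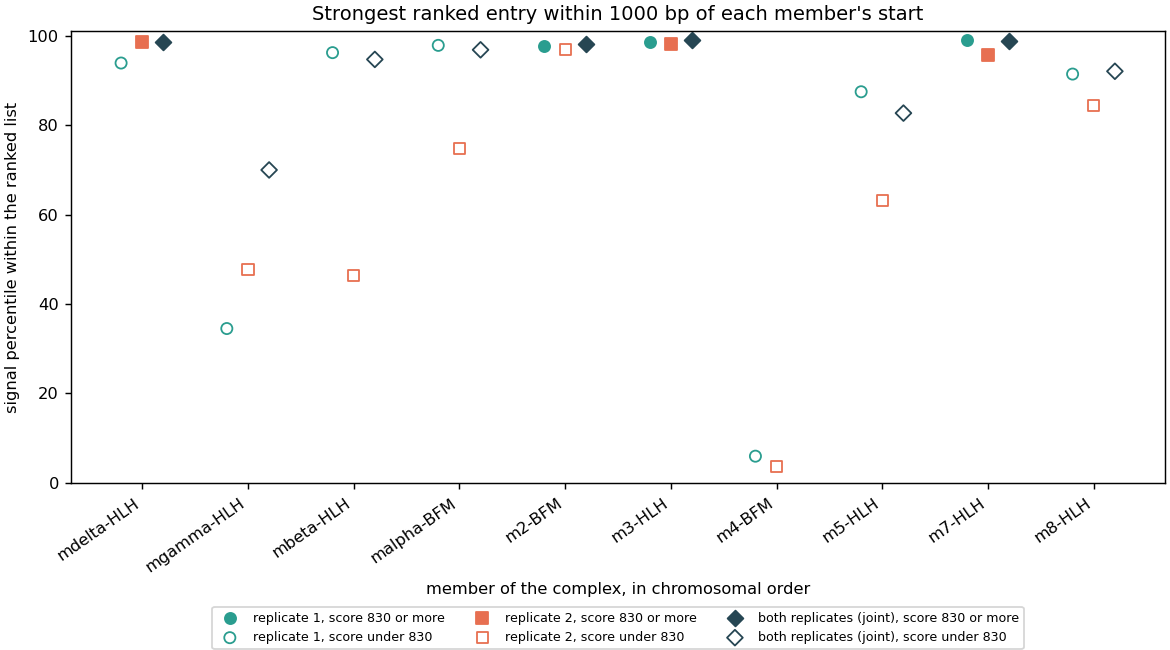
Percentile of the strongest ranked entry within 1000 bp of each member's start (vertical axis, within that ranked list), for the members in chromosomal order (horizontal axis). Circles are replicate 1, squares replicate 2 and diamonds the joint ranked list, filled where the score reached 830. The 4 bound members, picked through the joint list, lie at 93.9 or higher in every list. E(spl)m4-BFM has 5.97 and 3.70 and no joint entry.

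A ranked entry alone carries little weight. All 10 members had one within 1000 bp in each replicate, but so did 78.4% of all protein-coding genes in replicate 1 and 72.4% in replicate 2.

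The positions of the 4 bound members' summits were alike, with a median of 383 bp upstream. Over the 1877 genes bound in the joint list the median was 144 bp upstream, and in 34% of them the strongest summit lay more than 200 bp upstream, as it did in 4 of the 4 members. A further 1050 of the 1877 had it within 200 bp of the TSS, a distance at which none of the 10 members had a joint summit. With 4 genes of 1 complex, these positions are a description and were not tested.

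**Figure D3:**
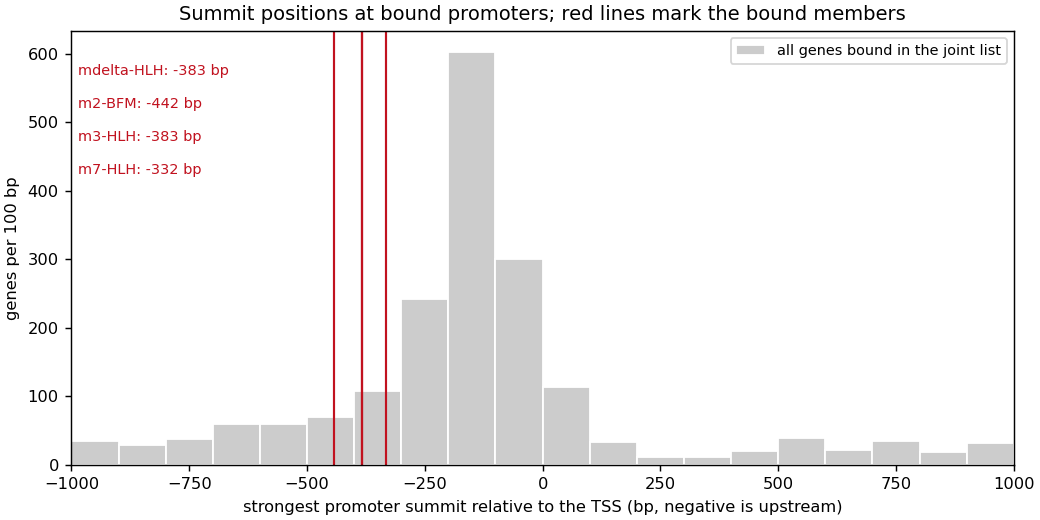
Number of genes per 100 bp (vertical axis) by the position of the strongest promoter summit relative to the TSS (horizontal axis, bp, negative upstream), for all genes bound in the joint list (grey bars). Red lines mark the 4 bound members, between -442 and -332 bp, with the lines of E(spl)mdelta-HLH and E(spl)m3-HLH on top of each other; they stand left of the tallest bars.

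Further joint peaks lay outside the members' promoters. The strongest within the complex was at 3R:26008940-26009263, between the divergent genes E(spl)mbeta-HLH and E(spl)malpha-BFM, with its summit 3079 bp upstream of the first and 1791 bp upstream of the second. It had a joint signal of 111 at percentile 74.1, and both replicates had it, with 55.2 and 55.0 at percentiles 55.3 and 55.2. Its summit differed by 0 bp in replicate 1 and 1 bp in replicate 2, the closest match of the 11. This is the peak of the complex on which the replicates stood nearest to each other in percentile and position.

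A peak of 83.5 (3R:26012832-26013155) lay between E(spl)malpha-BFM and E(spl)m2-BFM, 1727 bp upstream of Kaz-m1, known earlier as E(spl)m1, which encodes a protein of the Kazal protease inhibitor type. Replicate 2 had it with 50.8, and replicate 1 had a ranked entry of 30.0 with a score of 232. The peak in lncRNA:CR43644 (3R:26020395-26020718), 1266 bp upstream of E(spl)m3-HLH, had 44.5 and a score of 937, the only joint peak of the 11 under the cap of 1000. Neither replicate had it in its thresholded list, and their ranked entries were 28.1 and 24.5.

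The interval between E(spl)m2-BFM and E(spl)m3-HLH, whose TSSs point away from each other, held 4 of the 7 peaks within the complex. The other 3 lay in the intervals between E(spl)mbeta-HLH and E(spl)malpha-BFM, between E(spl)malpha-BFM and E(spl)m2-BFM, and between E(spl)m5-HLH and E(spl)m7-HLH. No joint peak lay in the other 5 intervals. The shortest, of 693 bp between the 3′ ends of E(spl)m3-HLH and E(spl)m4-BFM, held no ranked entry in any list. Gene bodies of the members make up 21.3% of the complex, and they held 0 of the 7 joint summits, 0 of 5 in replicate 1 and 0 of 5 in replicate 2. The bodies did hold ranked entries, 7 of 40 in replicate 1 and 9 of 32 in replicate 2. The share of all joint summits that lie in gene bodies is not given here. Most of the replicates' peaks are the joint peaks again, so their counts are no separate support.

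The flanks of the complex carried its neighbours' peaks. The groucho gene (gro), which encodes the co-repressor that the E(spl) repressors recruit, begins just beyond E(spl)m8-HLH. A peak of 245 lay in it (3R:26042431-26042593), 137 bp upstream of one of its internal TSSs, and it was the highest of the 11, at percentile 94.4. Replicate 1 had 115.3 there at percentile 89.2 and replicate 2 had 127 at percentile 91.1. A weaker peak of 56.5 (3R:26041501-26041824) lay 73 bp upstream of the first gro TSS and 1423 bp downstream of that of E(spl)m8-HLH. It was in neither replicate's thresholded list, with ranked entries of 23.5 and 30.8. At the other end, a peak of 93.7 lay in CG43116 (3R:25996414-25996737), 1045 bp upstream of E(spl)mdelta-HLH and so just outside the promoter limit. Both replicates had it, with 50.7 and 43.8. In replicate 2 its summit was 911 bp upstream of E(spl)mdelta-HLH and so inside that limit, and in replicate 1 it was 1072 bp upstream. The remaining genes of the region, Kaz-m1 and E(spl)m6-BFM, had no joint promoter peak.

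Across the 11 peaks, 5 overlapped a thresholded peak of both replicates, 2 of replicate 1 alone, 2 of replicate 2 alone and 2 of neither. The share found in both was 45.5%, against 40.8% of all joint peaks, so the complex stood close to the background in this respect. The median signal of the 11 was 83.5 against 73.6 over the whole list. Peaks of the complex were thus of ordinary height and ordinary reproducibility.

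Few stretches of the genome held as many. The 5 large chromosome arms were cut into 2479 tiles of 53388 bp, the width of the complex with its margins. A tile held a median of 1 joint summit and at most 12, and 2 tiles (0.0807%) held 11 or more, on 3L and X and neither of them overlapping the complex. In replicate 1, 0 tiles (0%) held 7 or more and the highest held 6. In replicate 2, 3 tiles (0.121%) held 8 or more and the highest held 10. The complex window was centred on its genes while the tiles were fixed, and it spans more than 10 TSSs, whereas tiles were not matched on gene number. Only 7 of the 11 joint summits lay within the complex itself, and the rest lay in the margins, near CG43116 and gro. The tile shares thus include the margins' peaks, and none is given for the complex alone. With overlapping peaks merged, 10 peaks were left in the window and 0.0807% of tiles held as many. The denser placing also showed in the ranked entries, with 51 in replicate 1 (0.968% of tiles held as many, tile median 29) and 39 in replicate 2 (1.53%, tile median 21). It was weaker in the joint ranked list, which had 57 entries where 8.03% of tiles held as many and the tile median was 40.

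**Figure D4:**
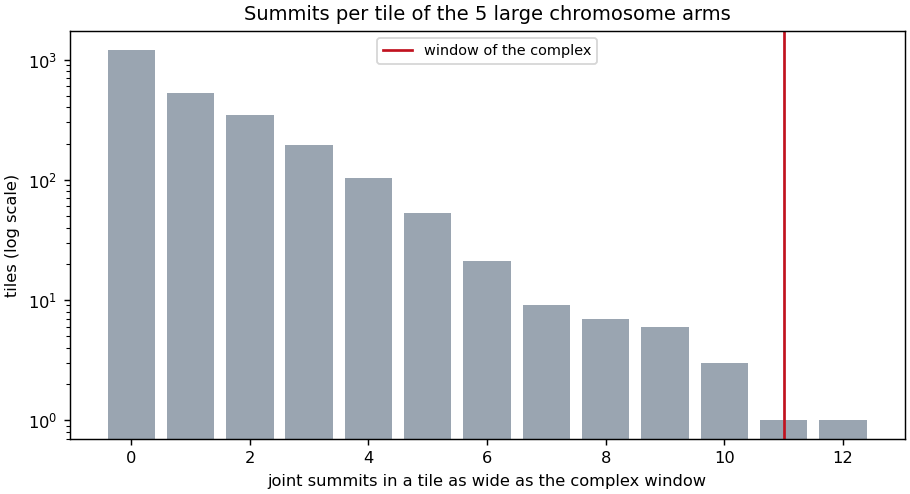
Number of tiles (vertical axis, log scale) by the joint summits they hold (horizontal axis), for 2479 tiles of 53388 bp on the 5 large chromosome arms. The red line marks the complex window with its 11 summits, which 2 tiles equal or exceed.

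Matches to the Su(H) pattern lay elsewhere than the summits of the joint list. Su(H) sites were searched for as GTGGGAA and GTGAGAA on both strands. Within the 201 bp of the 11 summits there were 0 matches to either, where 1.9% and 2.89% of all joint summits had one, so few would be found in 11 windows at that rate. In the 1000 bp upstream of the TSS, 9 of the 10 members had at least 1 such match, E(spl)m3-HLH being the exception, against 19.5% of 13944 promoters. There were 5 at E(spl)malpha-BFM, 4 each at E(spl)mgamma-HLH and E(spl)m5-HLH, and 3 each at E(spl)m4-BFM, E(spl)m7-HLH and E(spl)m8-HLH. Promoters with 3 or more made up 0.208% of all, 29 in number with these 6 members among them. Of these 6 genes with 3 or more, E(spl)m7-HLH had a joint promoter peak and the other 5 had none. With 6 genes, this cannot be told from the 13.5% of all protein-coding genes with such a peak.

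At E(spl)mgamma-HLH, E(spl)m4-BFM, E(spl)m7-HLH and E(spl)m8-HLH, matches on opposite strands began exactly 24 bp apart, with 17 bases between them. This arrangement is known from work on these genes as a paired Su(H) site. The 300 bp upstream of E(spl)mgamma-HLH (3R:25999551-25999850) and of E(spl)m8-HLH (3R:26039940-26040239) show it. Both are on the plus strand, which is the genes' own, and end at the base before the TSS, with Su(H) matches in capitals.
E(spl)mgamma-HLH: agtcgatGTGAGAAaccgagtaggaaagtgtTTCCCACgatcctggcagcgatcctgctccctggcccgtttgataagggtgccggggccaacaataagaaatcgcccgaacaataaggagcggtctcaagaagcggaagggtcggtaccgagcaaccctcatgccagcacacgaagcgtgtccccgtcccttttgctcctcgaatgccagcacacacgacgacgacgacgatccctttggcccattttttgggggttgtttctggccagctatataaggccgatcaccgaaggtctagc
E(spl)m8-HLH: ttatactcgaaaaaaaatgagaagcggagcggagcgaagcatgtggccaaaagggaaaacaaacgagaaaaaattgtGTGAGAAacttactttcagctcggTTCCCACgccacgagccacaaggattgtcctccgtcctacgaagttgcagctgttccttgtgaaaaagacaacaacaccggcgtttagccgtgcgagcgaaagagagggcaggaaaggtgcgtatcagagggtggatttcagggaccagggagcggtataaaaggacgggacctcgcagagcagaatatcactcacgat
The pairs begin 293 and 223 bp upstream of the TSS. Neither gene had a joint peak there. At the bound genes the summit was 388 bp from the nearest Su(H) match at E(spl)mdelta-HLH, 520 bp at E(spl)m2-BFM and 309 bp at E(spl)m7-HLH. With chromatin fragments of 200 to 800 bp, these distances fall within the length of a fragment, and they were not tested. A match is a run of letters and not a measured binding site.

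**Figure D5:**
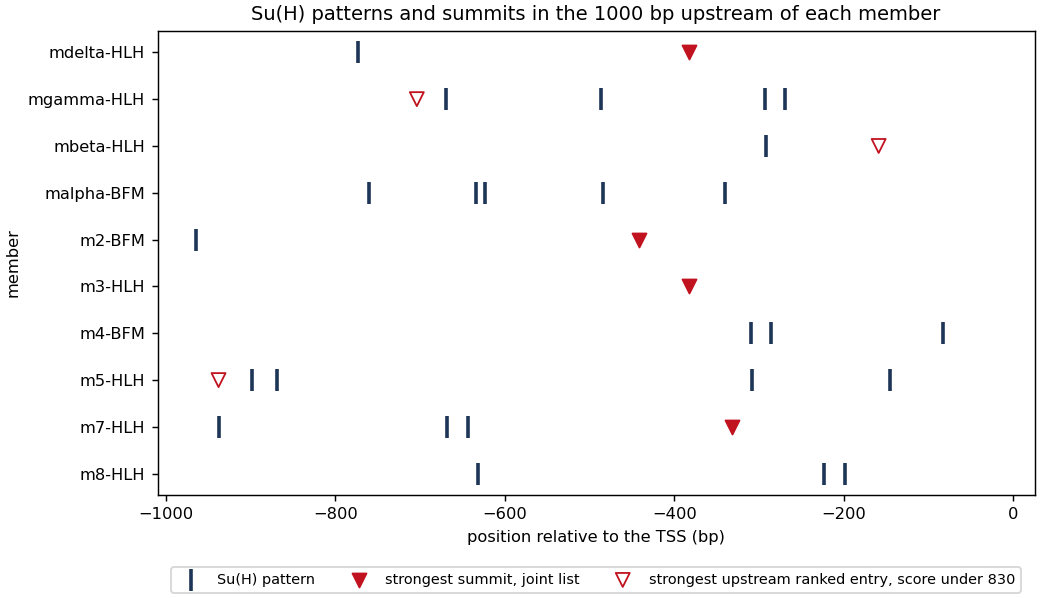
Positions of Su(H) pattern matches (dark bars) and of summits (triangles) in the 1000 bp upstream of each member, in bp from the TSS (horizontal axis), 1 row per member. Filled triangles are the strongest joint summits and open triangles are ranked entries with a score under 830 where the strongest lay upstream. No filled triangle lies within 300 bp of a dark bar of the same gene, while the open triangles do. The genes with filled triangles have 1, 1, 0 and 3 matches, and E(spl)m3-HLH, with 0, cannot have a near one. The genes with open triangles, E(spl)mgamma-HLH, E(spl)mbeta-HLH and E(spl)m5-HLH, have 4, 1 and 4. The distances expected from these numbers are not given, and the difference was not tested.

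Of the other patterns, only the general E-box was found at more than 1 of the 11 summits. An E-box of any kind (CANNTG), the site of basic helix-loop-helix proteins, was found at 6 of the 11 summits, close to the 59.3% of all joint summits. Of the 4 promoter summits, that of E(spl)m7-HLH had one. The proneural E-box CAGCTG was at 0 of 11 (8.24% of all joint summits), as were its variant CAGGTG (4.96%) and the repressor site CACGCG (3.48%). The CR43644 window alone held the palindrome CACGTG (2.39%), the N-box written as CACNAG (21.1%) and the core CCACCC (6.16%). GAGAG, which the GAGA factor binds, was found at E(spl)m3-HLH alone (24.5% of all summits). The Zelda site CAGGTAG was at the edge of the E(spl)m2-BFM window alone (1.06%). The GATA factor site AGATAA (14.1%), the DNA replication element TATCGATA (2.57%), the Grainyhead site AACCGGTT (0.317%) and the core promoter element GGTCACACT (0.986%) were at 0 of 11. The general E-box count includes every match to the proneural pair and to the palindrome, and all patterns were searched for on both strands. With 11 windows, shares of a few percent cannot be told from 0.

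Base composition was also read at the position of the bound members' summits. Windows of 201 bp were centred 383 bp upstream of each TSS, the median position of the 4 summits. Their GC content ran from 23.4 to 35.8% at the 4 bound members and from 43.3 to 57.2% at the 6 others. The median over 13945 protein-coding genes at that position was 39.3%. The position was taken from the bound members' own summits, so this is a description. At E(spl)mdelta-HLH and E(spl)m3-HLH these windows are the summit windows themselves. Joint summits had low GC in general, with a median of 35.3% against 42.3% over flanks. Shares of all genes within these ranges are not given here. Over the whole 1000 bp upstream the groups overlapped, with 43.7 to 46.8% at the bound and 45.9 to 53.9% at the others. Of all genes, 83.7% had 46.8% or less there. Across all genes, GC content of the 1000 bp upstream had a median of 42.2% at bound and 41.0% at other promoters. The part of base composition in the calls was not tested.

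Pathway genes outside the complex were read against the same 13.5%. Of 25 listed other Notch pathway genes, 1, the ligand gene Dl, was not analysed here. Of the remaining 24, 7 had a joint promoter peak (29.2%), with 5 in replicate 1 and 6 in replicate 2. Of the latter 6, mam and CtBP had no joint promoter peak. The highest was numb, an inhibitor of Notch, with a joint signal of 242, found in both replicates with 102 and 139. Next was aph-1, a subunit of the gamma-secretase that cleaves Notch, with 131. Its partner subunit Nct had 47.7, and kuz, the protease that cuts Notch first, had 50.6. The enzymes that put sugars on Notch, fng and rumi, had 80.4 and 69.4, and neur, the ligase that Bearded proteins inhibit, had 67.3. Only numb and aph-1 of these 7 were bound in both replicates' thresholded lists. With a summit anywhere in the gene or 2000 bp either side, 11 of the 24 and 6 of the 10 members were bound, against 22.9% of all protein-coding genes. The receptor gene N, the other ligand gene Ser and Su(H) itself had no joint promoter peak. Among relatives of the member families, 0 of 5 Hairy-related repressor genes and 0 of 4 Bearded complex genes had one. Each of these lists named 6 genes, the rest of which were not analysed here. Of 9 proneural and partner genes, da alone did, with 59.2.

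The promoters most like that of E(spl)m3-HLH in their percentiles over the 3 thresholded lists, among 919 other genes bound in all 3, were those of Xbp1, which encodes a transcription factor of the unfolded protein response, and of CG4558 and Cht11, a chitinase gene. Xbp1 had 107 in the joint list, 46.3 in replicate 1 and 55.9 in replicate 2. CG4558 and Cht11 share 1 peak, of 100.8 in the joint list, 44.6 in replicate 1 and 56.4 in replicate 2.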

How the data were processed

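Peak lists deposited by the authors were used for 2 replicates and for the joint experiment, on dm6, per the labels. Each list has thresholded peaks and ranked entries behind them, 8 lists in all. The signal value and the score (scaled from the irreproducible discovery rate, with kept peaks scoring high) of each peak are the authors' own, deposited with the lists. Further inputs of the lists, their control, the aligner and the peak caller are not given in the sources used here. The last 8 columns of each ranked list (32 in all) could not be assigned to samples and were left out. Read depth is unknown.

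Summits were set against Ensembl release 115 (BDGP6 6.54) and the RefSeq genome of the same assembly. Genes with a summit no more than 1000 bp from a TSS counted as bound, and lists overlapped at 1 bp or more. E(spl)m1 was matched as Kaz-m1 and h as hry by synonym, and 4 of 59 listed names were not analysed here. Every joint peak within 5000 bp of the complex, its 10 genes and their neighbours, the bound genes of each list and the 3 genes nearest to the strongest bound member were named. The members and lists were chosen with earlier results of these data known. No test was run, since there is 1 group. Counting of overlaps, tiles and patterns was checked on simulated data. Python 3.11.15, numpy 2.4.6, pandas 2.3.3 and matplotlib 3.10.9 were used. Alternatives were other lists, margins, promoter and gene definitions, overlap rules and motif windows.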

Additional observations from a re-analysis of the deposited data

How the results depend on the processing

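Of 57 alternative values, 42 stayed within 1.5 times the reported count or within the spread of the replicates' medians (SD 3.70 percentiles). The number of peaks in the complex ranged from 7 to 8 with 1 replicate's list, being 7 in replicate 1, and was 7 without the margins. Merging overlapping peaks, an alternative chosen after seeing the data, gave 10. The members with a promoter peak numbered 3 to 6 and the ranked entries 39 to 65, against 4 and 57. The median percentile of 58.8 ranged from 46.9 to 52.2 in single replicates and was 51.6 with scores of 1000 only. Peaks found in both replicates numbered 3 without margins and 11 when the full ranked lists counted, against 5. The share of all joint peaks found by the full ranked lists is not given here. With a summit in the gene or 2000 bp either side, 11 other Notch genes were bound in place of 7, while the share of all protein-coding genes rose from 13.5% to 22.9%. The count of other Notch genes was 5 in the conservative list and 5 within 500 bp of a TSS. Matches to either Su(H) pattern stayed at 0 in all 6 alternatives. E-boxes fell to 3 summits with 50 bp either side and rose to 10 with 200 bp. The CCACCC core, at 1 summit, was at 0 in both single replicates, 0 with scores of 1000 only, 0 with 50 bp and 2 with 200 bp. The settings hold fewer or more peaks or bases than the main one, and the cause of these differences was not tested. No paired analysis was possible because there is 1 group.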
